A study of Mus musculus with 17 samples.

Results

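In embryos at E14.5, the loss of the homeobox genes Dlx1 and Dlx2 was examined in cells sorted from the mouse small intestine. The comparison was taken from the labels and holds 8 of the 17 libraries of the study, 4 from mutant (Dlx1/2-/-) and 4 from wild-type (Dlx1/2+/+) embryos. Both groups were CF1 x C57BL/6J and carried the EDNRB-L10A-EGFP reporter by whose fluorescence the cells were sorted, so any effect of that reporter is shared by both. The other 9 libraries are from newborn bowel (P0, 4 wild-type and 5 mutant), come from CF1 x C57BL/6J x CBA/J mice and were sorted by Wnt1-Cre and R26R-TdTomato, and are used only to set a change at E14.5 beside the change at birth. RNA from the sorted cells was counted per gene on the sense strand. Whether the libraries come from separate embryos is not in the labels, and the p-values speak only for the spread among them. In bulk RNA, fewer cells of a type and less RNA per cell cannot be told apart.

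The enteric nervous system arises from neural crest cells that enter and colonise the bowel, and from them come progenitors, neurons and glia. Ednrb, the endothelin receptor named in the reporter, is made by the migrating crest cells and is needed for colonisation of the bowel. DLX1 and DLX2 are homeodomain transcription factors encoded side by side on chromosome 2, best known for inhibitory neuron development in the forebrain. In the bowel wall, excitatory motor neurons use acetylcholine and tachykinins, while inhibitory motor neurons use nitric oxide and vasoactive intestinal peptide.

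The E14.5 libraries each held 6949217 to 6956149 counts, with 15973 to 18552 genes detected. Levels below are CPM (counts scaled to a common library total by TMM), and values of single libraries are given in the order of replicates 1 to 4. A library is named by its group and replicate, so that wild-type 3 is the third wild-type library. A gene is said to have risen or fallen where edgeR's quasi-likelihood test gave a Benjamini-Hochberg adjusted p under 0.05 over all 13521 genes tested. Crest markers were high in every library: Ednrb was at 1642 to 2135 CPM and Sox10 at 480.3 to 576 CPM. Gfap, a marker of mature glia, had 28 and 38 counts in all in the wild-type and mutant groups and was not tested. Y-linked genes were detected in 3 of 4 wild-type libraries (all but wild-type 2) but 1 of 4 mutant libraries (mutant 2), so sex was unevenly spread over the genotypes.

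Beyond Dlx1 and Dlx2, the mutant cells had less Vip, the inhibitory neuropeptide precursor, and less Lifr, a cytokine receptor. They had more Penk and Slc17a6, transmitter genes of other neurons, and more Hoxb6. In all, 23 of the 13521 genes tested changed (0.17%), 8 higher (0.0592%) and 15 lower (0.111%). Of these, 21 are protein-coding genes described below and 1, lower in mutants, is a predicted gene. The median log2 fold over all genes tested was 0.003, with a median standard error of 0.21. Without adjustment, 966 genes (7.14%) had a p under 0.05. The 4 mutant libraries lay entirely above or below the 4 wild-type libraries for 576 genes (4.26%, with 2.31% above and 1.95% below), and for 20 of the 21 genes described. The 21 were picked by their p in these same libraries, so their share cannot be compared with that of all genes.

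**Figure D1:**
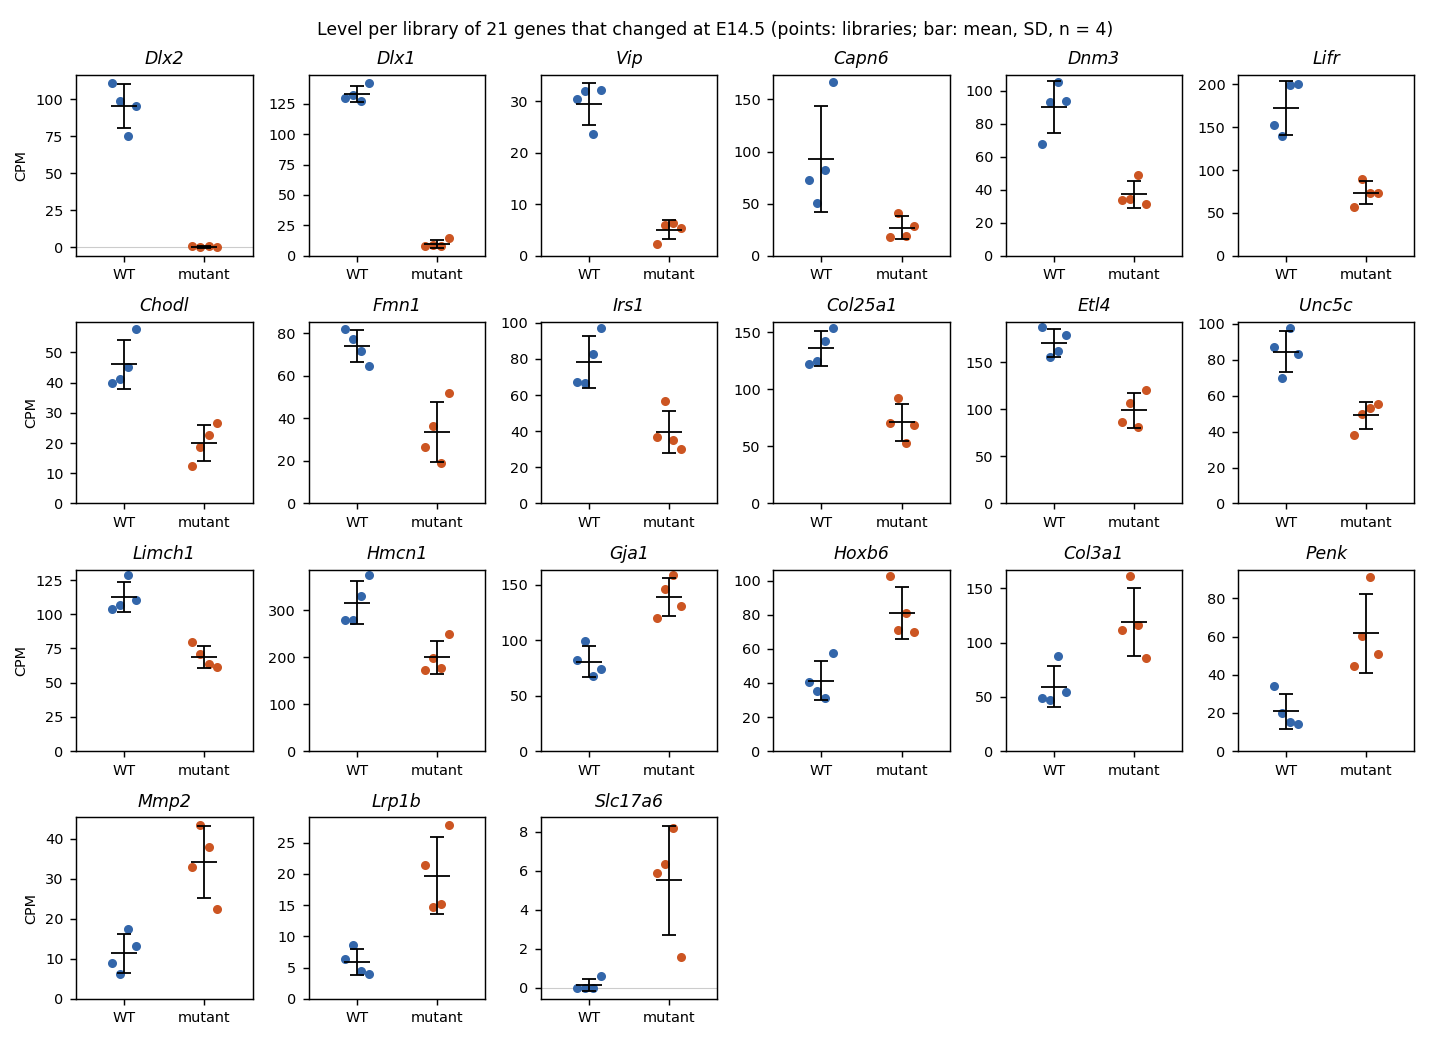
Level in CPM (vertical axis, from 0) of each of the 21 genes described that changed, in 4 wild-type (blue) and 4 mutant (orange) libraries, with the mean and SD. Col3a1 is the only one of the 21 whose groups overlap, and the genes run from the largest fall (Dlx2) to the largest rise (Slc17a6).

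**Figure D2:**
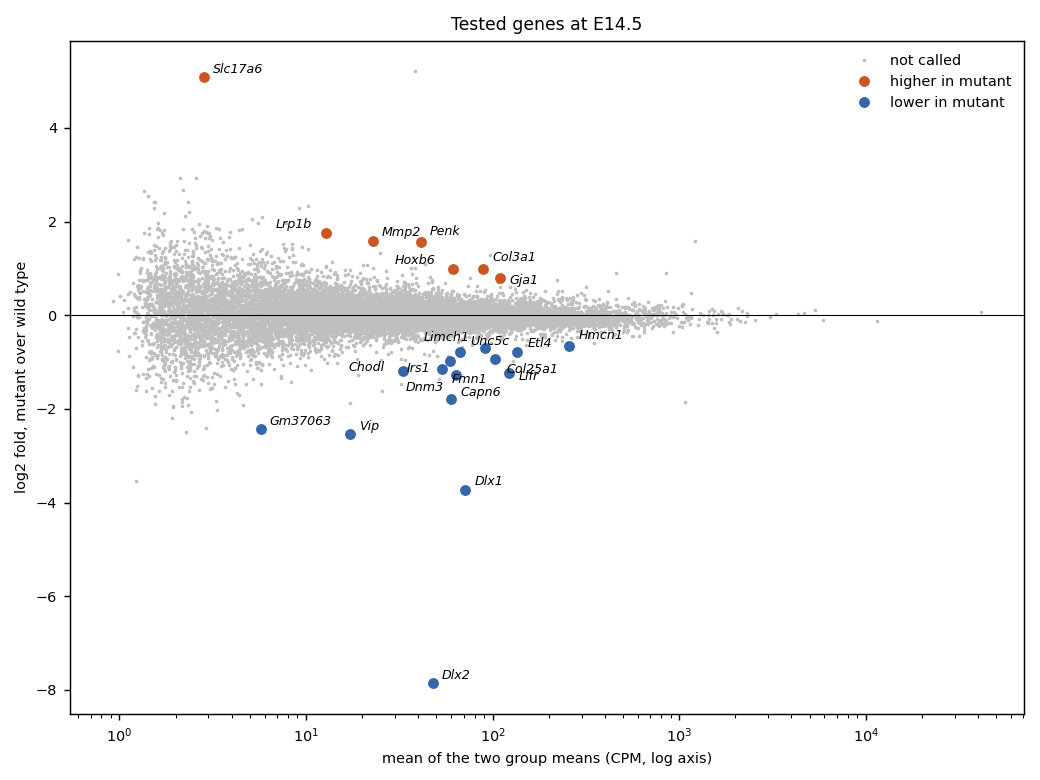
Log2 fold of mutant over wild type (vertical axis) against mean level in CPM (log axis) for the genes tested. Genes that rose are orange, the 15 that fell are blue, and others are grey.

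The targeted genes come first because they check the labels. Dlx1 (chr2:71528113-71533981, plus strand, GRCm38) was at 129.9, 132, 127 and 142 CPM in wild-type and 7.82, 9.15, 8.20 and 14.6 CPM in mutant libraries. Dlx2 (chr2:71543408-71546754, minus strand) was at 111, 99.3, 75.3 and 95.9 CPM and 0.738, 0, 0.848 and 0 CPM. Every mutant library was thus far below every wild-type library for both genes, with log2 folds of -3.74 ± 0.18 for Dlx1 and -7.85 ± 0.38 for Dlx2 (± SE; adjusted p = 1.22e-10 for each by edgeR). Leaving out 1 library moved the Dlx2 fold to between -8.53 and -7.45, since 11 mutant counts set it. The 9 other tested genes that start within 500 kb of the locus all missed the threshold. They ran from -0.37 ± 0.15 for Hat1, a histone acetyltransferase, to 2.06 ± 0.58 for Rapgef4, an exchange factor for RAP1 activated by cyclic AMP, which was at 2.17, 2.67, 2.44 and 0.576 CPM in wild-type and 1.92, 8.16, 9.61 and 13.3 CPM in mutant libraries. Dlx5 and Dlx3, the other Dlx genes tested, had log2 folds of -0.13 ± 0.28 and 0.25 ± 0.91 and did not pass. Both are near 0 against their errors and change sign when 1 library is left out, Dlx5 to 0.07 and 0.0046 without wild-type 1 or mutant 3, and Dlx3 to -0.16 and -0.48 without wild-type 2 or mutant 4.

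Vip fell the most of all named genes after the targeted pair, and Slc17a6 rose the most. A promoter window of each is shown for that reason, as RefSeq gives it on GRCm38.p6, with the 250 bases that end just before an annotated transcription start. Capitals in Vip mark TGACG, the core of a cyclic AMP response element, which was searched on both strands. Capitals in Slc17a6 mark TAATTA, a homeodomain core that reads the same on both strands. This start is 1 of 2 annotated for the gene and was picked because its window holds TAATTA, so the match was fixed by that choice. The window of the other start does not hold it and is not shown. The window shown lies inside the gene, which begins at chr7:51622006. The Slc17a6 window also holds 1 TGACG, left in lower case, while the Vip window holds 0 TAATTA.
Vip, chr10:5638968-5639217, plus strand: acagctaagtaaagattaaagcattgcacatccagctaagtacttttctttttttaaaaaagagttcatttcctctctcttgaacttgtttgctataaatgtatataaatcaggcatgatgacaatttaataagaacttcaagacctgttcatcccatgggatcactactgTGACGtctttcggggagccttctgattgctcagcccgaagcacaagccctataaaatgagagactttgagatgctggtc
Slc17a6, chr7:51624387-51624636, plus strand: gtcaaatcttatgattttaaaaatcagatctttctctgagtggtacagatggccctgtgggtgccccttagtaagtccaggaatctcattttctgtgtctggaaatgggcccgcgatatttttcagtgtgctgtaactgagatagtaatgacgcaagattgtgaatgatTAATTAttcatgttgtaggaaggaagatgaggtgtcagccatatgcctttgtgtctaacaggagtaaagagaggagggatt

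The TGACG of Vip begins 79 bases before the start and the TAATTA of Slc17a6 begins 81 bases before it. TAATTA lay in 4.84% of the 32851 RefSeq windows of this length, and TGACG in 17.8%. For 17 of the 21 genes described that changed, 24 windows were given, of which 2 held TAATTA (1 each at Slc17a6 and Etl4) and 7 held TGACG. These matches describe the letters in the windows and no binding was measured.

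Among the neuropeptide precursors and transmitter genes, 1 inhibitory peptide fell while an opioid peptide and a glutamate transporter rose. Vip (chr10:5639218-5647617), which encodes vasoactive intestinal peptide, was at 30.5, 32.0, 23.5 and 32.1 CPM in wild-type and 2.36, 6.05, 6.36 and 5.48 CPM in mutant libraries. The groups were far apart, and the log2 fold was -2.54 ± 0.28 (adjusted p = 9.67e-05 by edgeR), with 142 mutant counts against 813. Per 1000 counts of the summed pan-neuronal genes, Vip stood at 3.98, 4.02, 2.85 and 4.79 in wild-type and 0.252, 0.86, 0.608 and 0.566 in mutant libraries, so it was also lower per unit of neuronal RNA.

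Penk (chr4:4133531-4138819), the precursor of the enkephalins, was at 34.1, 20.1, 15.1 and 14.1 CPM in wild-type and 44.6, 60.3, 91.0 and 50.7 CPM in mutant libraries. Mutant library 3 was the highest and wild-type 1 the highest of its group, yet the groups did not overlap. The log2 fold was 1.56 ± 0.26 (adjusted p = 0.0142 by edgeR), a call lost on leaving out wild-type 3 or mutant 3. Per 1000 pan-neuronal counts it was at 4.46, 2.52, 1.82 and 2.10 in wild-type and 4.75, 8.56, 8.70 and 5.23 in mutant libraries.

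Slc17a6 (chr7:51622006-51671119) encodes the vesicular glutamate transporter VGLUT2, which marks neurons that release glutamate. It had 4 wild-type counts, all of them in library 4, and 154 mutant counts, with mutant libraries at 5.90, 6.33, 8.20 and 1.59 CPM. The low one was mutant 4, which was still above wild-type 4 at 0.576 CPM. The ratio of summed counts was 38.5, with an exact 95% interval of 14.7 to 143 that covers counting error only, and edgeR gave a log2 fold of 5.08 ± 0.95 (adjusted p = 0.0284). Without wild-type 4 the wild-type group was at 0. The mean mutant count, 38.5 per library, was then 38.5-fold a set floor of 3 counts over that group, or 1 per library. Mutant 4 alone had 11 counts. The call was lost on leaving out wild-type 1, 2 or 3 or mutant 1, 2 or 3, and limma-voom did not make it.

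Other transmitter genes did not pass. Nos1, the neuronal nitric oxide synthase of inhibitory motor neurons, was at 37.4, 56.0, 68.5 and 72.1 CPM in wild-type and 23.9, 22.8, 29.1 and 53.8 CPM in mutant libraries. Mutant library 4 overlapped the wild-type range, and the log2 fold of -0.85 ± 0.25 had an edgeR adjusted p of 0.331. On leaving out 1 library the fold ran from -1.21 to -0.72, and it passed only without mutant 4 (adjusted p = 0.0229 by edgeR). Per 1000 pan-neuronal counts Nos1 averaged 7.75 in wild-type and 3.53 in mutant libraries. The direction turned, to 0.53, with the title date as a block. That contrast rests on wild-type 1 and mutant 4, the lowest wild type and the highest mutant for Nos1. For Cartpt, another peptide precursor, the log2 fold was 0.54 ± 0.28, and Gal, the galanin precursor, had 0.40 ± 0.20. For Chat, the enzyme that makes acetylcholine, it was 0.35 ± 0.31, and -0.08 with the date block. Npy had 50 wild-type and 19 mutant counts and Tac1, the substance P precursor, 0 and 6, too few to be tested.

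By list, the median was below 0 for inhibitory neuron genes and above 0 for excitatory ones, a difference that was not tested. Pan-neuronal genes as a whole also lay above 0 in 23 of 26, with a median of 0.38, so the excitatory median was no higher than theirs. Of 12 tested genes of VIP and nitrergic neurons, 1 fell (Vip) and 4 were above 0, with a median log2 fold of -0.23 that came to -0.008, -0.06 and -0.04 on leaving out wild-type 3, wild-type 4 or mutant 1. Further low values in that list were -0.52 ± 0.13 for Ass1, which recycles citrulline for nitric oxide synthesis, and -0.80 ± 0.29 for Man1a, a Golgi mannosidase. Of 12 tested cholinergic, tachykinin and enkephalin neuron genes, 1 rose (Penk) and 10 were above 0, with a median of 0.35 (0.20 without mutant 3), beside 50.4% of all genes above 0. Its next members were Casz1, a zinc finger transcription factor (0.79 ± 0.18), and Chgb, a granin of secretory granules (0.52 ± 0.15), neither of which passed. Of 11 tested neuropeptide precursors, 1 rose and 1 fell, with a median of 0.40. Of 12 tested neuropeptide receptors none passed edgeR's test, while 3 had an unadjusted p under 0.05, beside 7.14% of all genes. Among those receptors were Adcyap1r1, the receptor for PACAP (-0.64 ± 0.19), and the somatostatin receptor Sstr2 (2.42 ± 0.81).

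Pan-neuronal genes lay mostly above 0, though none passed. Of 26 tested, 23 were higher in mutants, beside 50.4% of all genes, with a median log2 fold of 0.38 that ran from 0.27 to 0.46 when 1 library was left out. Of the 26, 15 had an unadjusted p under 0.05, all higher, beside 7.14% of all genes in either direction. Nefl, the neurofilament light chain, was at 367, 404, 337 and 172 CPM in wild-type and 717, 389, 649 and 622 CPM in mutant libraries (0.89 ± 0.21; adjusted p = 0.111 by edgeR). Wild-type library 4 was lowest and mutant 2 fell inside the wild-type range, and the same libraries stood out for Nefm, the medium chain, at 594, 908, 575 and 285 CPM and 1447, 647, 1156 and 1165 CPM. Dcx, the microtubule protein of young neurons, had a log2 fold of 0.61 ± 0.15. The summed level of the list was 6705 to 8260 CPM in wild-type and 7040 to 10460 CPM in mutant libraries, with mutant 2 again the low mutant. Mutant 2 was also the only mutant library with Y-linked counts. With Y-linked expression as a covariate, the log2 folds were 0.57 for Nefl, 0.45 for Nefm (0.90 without it) and 0.42 for Dcx. The part of sex in these differences was not tested. Voltage-gated ion channels were above 0 in 30 of 38, with a median of 0.20, but a median of 0.05 with mutant 3 left out and 0.35 with wild-type 3 left out. Examples were the sodium channel Scn3a (0.69 ± 0.17), the potassium channel Kcnd2 (0.96 ± 0.29) and, lower in mutants, Kcnq3 (-0.88 ± 0.29). Synaptic vesicle genes were above 0 in 24 of 36, with a median of 0.11 that came to 0.05 without mutant 3, 0.21 without mutant 2 and 0.23 without wild-type 3. All 14 lists with a median within 0.05 of 0 changed the sign of that median on leaving out 1 library or another.

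**Figure D3:**
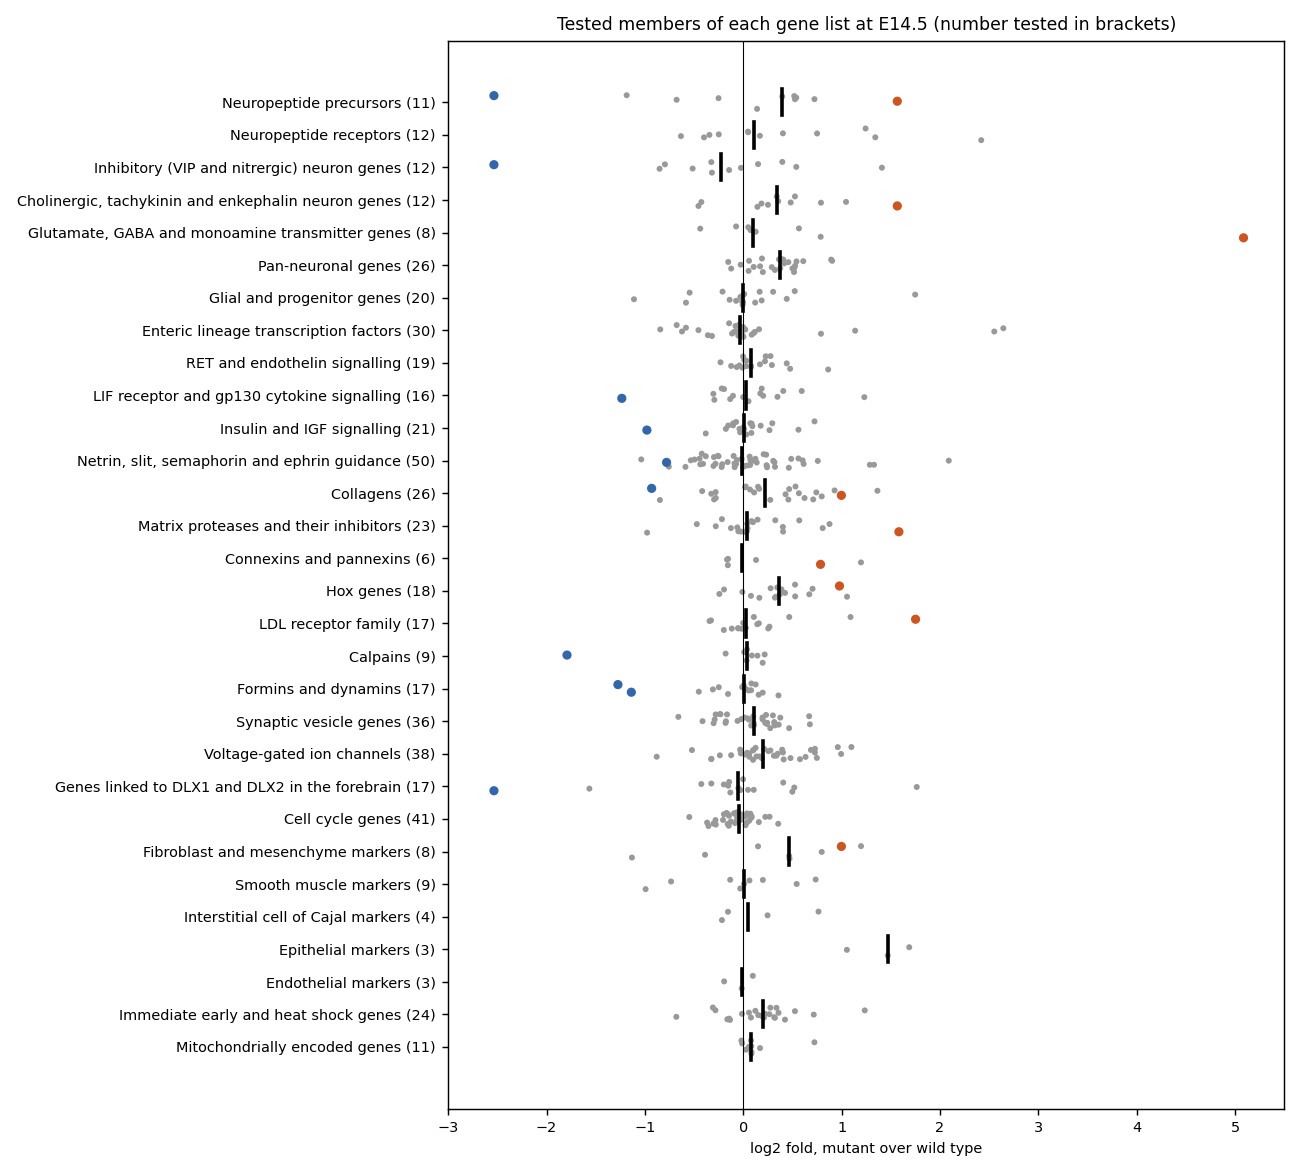
Log2 fold of mutant over wild type for each tested member of the gene lists with 3 or more tested members, with the list's median as a black bar and members that rose in orange or fell in blue. Pan-neuronal and Hox genes lie mostly right of 0, with medians of 0.38 and 0.36, while glial genes, transcription factors and cell cycle genes have medians within 0.05 of 0.

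Gja1 (chr10:56377330-56402513), the gap junction protein connexin 43 that couples enteric glia, was at 82.1, 99.1, 67.7 and 74.2 CPM in wild-type and 120.1, 146, 159 and 131 CPM in mutant libraries. All mutants were above all wild types, with a log2 fold of 0.78 ± 0.14 (adjusted p = 0.0184 by edgeR). This call was lost on leaving out wild-type 1, 3 or 4 or mutant 3. Of 6 tested connexins and pannexins it alone passed, and the other 5 ran from -0.17 to 1.20.

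Over 20 tested glial and progenitor genes, the median was -0.006 (-0.06 to 0.05 on leaving out 1 library). Of these, 2 higher and 2 lower members had an unadjusted p under 0.05, beside 7.14% of all genes. Sox10, the transcription factor that holds the crest progenitor and glial state, was at 556, 537, 521 and 560.4 CPM in wild-type and 576, 568, 480.3 and 539 CPM in mutant libraries, a log2 fold of -0.01 ± 0.10. Erbb3, the neuregulin receptor of glia, had -0.00 ± 0.11 and Ednrb 0.01 ± 0.11. Larger differences that did not pass were those of Ngfr, the low-affinity neurotrophin receptor (0.44 ± 0.11), and Nes, the intermediate filament of progenitors (-0.55 ± 0.12). Their groups do not overlap in either case, as holds for 4.26% of all genes. S100b, another glial marker, had 38 wild-type and 130 mutant counts (1.75 ± 0.78).

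Receptors and signalling genes that changed were 3 that fell and 1 that rose. Lifr (chr15:7090614-7197489), the receptor that pairs with gp130 to bind LIF-family cytokines, was at 152, 140.1, 199 and 201 CPM in wild-type and 57.1, 89.8, 73.1 and 73.6 CPM in mutant libraries. Every mutant was below every wild type, with a log2 fold of -1.24 ± 0.15 (adjusted p = 0.000378 by edgeR), and each of the 8 fits that left out 1 library kept the call. Genes of its signalling partners did not pass: Il6st, which encodes gp130, had 0.20 ± 0.16, Cntfr 0.05 ± 0.16, Jak1 -0.11 ± 0.10 and Stat3 -0.20 ± 0.15. Of 16 tested genes of this pathway 1 passed and 8 were above 0, with a median of 0.03. The ligand gene Lif had 2 wild-type and 6 mutant counts.

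Irs1 (chr1:82233101-82291416), an adaptor of the insulin and IGF1 receptors, was at 67.4, 66.7, 82.9 and 96.9 CPM in wild-type and 37.0, 56.7, 35.0 and 30.2 CPM in mutant libraries. The groups were apart and the log2 fold was -0.98 ± 0.19 (adjusted p = 0.0307 by edgeR), but the call was lost on leaving out wild-type 1, 3 or 4 or mutant 1, 3 or 4. Of 21 tested insulin and IGF signalling genes it alone passed, and the median was 0.006.

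Unc5c (chr3:141465216-141834924), a netrin receptor that mediates repulsion of axons, was at 86.9, 70.0, 97.9 and 83.1 CPM in wild-type and 38.4, 49.8, 53.0 and 55.4 CPM in mutant libraries. Its groups were separate, with a log2 fold of -0.78 ± 0.15 (adjusted p = 0.033 by edgeR) that lost its call on leaving out wild-type 1, 3 or 4 or mutant 1, 2 or 3. Of 50 tested guidance genes it alone passed, 24 were above 0 and the median was -0.01. The next were Sema3d, a secreted semaphorin, at 14.7, 19.2, 16.8 and 5.90 CPM in wild-type and 42.0, 21.4, 33.8 and 44.9 CPM in mutant libraries (1.33 ± 0.29; adjusted p = 0.0838 by edgeR). Robo2, a receptor for slit proteins, had 0.60 ± 0.14 and Sema3e 2.09 ± 0.53, both with separate groups and neither past the test.

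Lrp1b (chr2:40595246-42653624), a large endocytic receptor of the LDL receptor family, was at 6.35, 8.62, 4.45 and 4.03 CPM in wild-type and 21.4, 14.6, 15.1 and 27.9 CPM in mutant libraries. All mutants exceeded all wild types at these low levels, with a log2 fold of 1.75 ± 0.31 (adjusted p = 0.0197 by edgeR), lost on leaving out wild-type 1, 3 or 4 or mutant 1 or 4. None of the 16 other tested members of its family passed. RET and endothelin signalling genes, which drive crest colonisation of the bowel, were above 0 in 13 of 19, with a median of 0.08 (0.05 without wild-type 2 and 0.12 without wild-type 4). In that list 0 passed edgeR's test, while 3 had an unadjusted p under 0.05, beside 7.14% of all genes. Those 3 were Ngfr, Erbb2 (0.48 ± 0.17) and Dusp6 (0.23 ± 0.11).

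Genes of the extracellular matrix changed in both directions. Mmp2 (chr8:92827291-92853420), a gelatinase that cuts basement membrane collagen, was at 8.95, 6.24, 17.4 and 13.1 CPM in wild-type and 33.0, 43.5, 37.9 and 22.4 CPM in mutant libraries. The lowest mutant lay above the highest wild type, and the log2 fold was 1.58 ± 0.28 (adjusted p = 0.0197 by edgeR), a call lost on leaving out wild-type 1 or mutant 1, 2 or 3. Col3a1 (chr1:45311538-45349706), a fibrillar collagen of connective tissue, was at 48.6, 47.4, 87.2 and 54.7 CPM in wild-type and 112, 161, 116 and 85.9 CPM in mutant libraries. Here wild-type 3 was above mutant 4, and the log2 fold was 1.00 ± 0.20 (adjusted p = 0.0413 by edgeR), lost on leaving out wild-type 1, 2 or 4 or mutant 1, 2 or 3.

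Col25a1 (chr3:130131501-130599877), a transmembrane collagen made by neurons, was at 122, 125, 143 and 154 CPM in wild-type and 70.4, 92.8, 52.8 and 68.8 CPM in mutant libraries. It fell with no overlap, by a log2 fold of -0.93 ± 0.15 (adjusted p = 0.0114 by edgeR), and lost the call on leaving out wild-type 3 or mutant 3. Hmcn1 (chr1:150562524-150993435), the matrix protein hemicentin 1, was at 278, 279.8, 331 and 375 CPM in wild-type and 173, 198, 177 and 249.8 CPM in mutant libraries. It also fell without overlap, by the smallest log2 fold of the 21 (-0.66 ± 0.13; adjusted p = 0.0463 by edgeR), with the call lost on leaving out wild-type 1, 3 or 4 or mutant 1, 2 or 3. Of 26 tested collagens 1 rose and 1 fell, 19 were above 0 and the median was 0.22 (0.13 without mutant 2). Basement membrane collagens Col4a1 (0.74 ± 0.27) and Col4a2 (0.56 ± 0.23) had overlapping groups and did not pass. With Y-linked expression as a covariate Col4a1 did pass, at 1.37 (adjusted p = 0.00345 by edgeR). Of 23 tested matrix proteases and inhibitors only Mmp2 passed.

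Fibroblast and mesenchyme markers, a list that holds Col3a1, were set beside these 2 rises. Of 8 tested, 1 rose, Col3a1 itself, and 6 were above 0. The median was 0.47 but 0.19 without mutant 2, and their summed level was 335 to 518 CPM in wild-type and 495 to 611 CPM in mutant libraries. Its defining members were low: Pdgfra was at 0 to 4.46 CPM in wild-type and 2.51 to 7.18 CPM in mutant libraries, Dcn had 1 and 18 counts, Twist2 0 and 6, and Postn made up most of the sum. Pdgfrb went the other way, with 158 wild-type and 73 mutant counts (-1.13 ± 0.52), and did not pass. Col1a2 had 0.80 ± 0.41 and was highest in mutant 2, at 39.1 CPM. Mutant library 2 was the highest for Col3a1, Mmp2 and the summed list. The part of such cells in the 2 rises was not tested.

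Another 6 genes fell, among them a dynamin, a calpain and a formin. Dnm3 (chr1:161982453-162478034), a dynamin of membrane fission, was at 67.7, 93.3, 106 and 93.4 CPM in wild-type and 33.9, 34.2, 48.9 and 31.6 CPM in mutant libraries. All mutants were below all wild types (-1.28 ± 0.17; adjusted p = 0.00081 by edgeR), a call kept in each of the 8 fits that left out 1 library. Capn6 (chrX:143802231-143827414), a calpain without protease activity that binds microtubules, was at 73.0, 50.2, 82.7 and 166 CPM and 17.7, 41.5, 19.1 and 29.0 CPM. Wild-type library 4 was the highest and the groups were apart (-1.79 ± 0.30; adjusted p = 0.0142 by edgeR), with the call lost on leaving out mutant 1 or 3.

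Fmn1 (chr2:113327736-113716767), a formin that nucleates actin, was at 82.0, 77.1, 71.7 and 64.5 CPM in wild-type and 26.4, 36.3, 19.2 and 52.1 CPM in mutant libraries. Mutant library 4 was nearest to the wild types, and the call (-1.14 ± 0.22; adjusted p = 0.0368 by edgeR) survived leaving out mutant 4 but none of the other 7 libraries. Limch1 (chr5:66745827-67057158), which acts on non-muscle myosin, was at 104, 107, 129 and 110.1 CPM and 79.5, 71.1, 63.3 and 61.8 CPM. Its narrow, separate groups gave -0.71 ± 0.13 (adjusted p = 0.023 by edgeR), lost on leaving out wild-type 3 or 4 or mutant 3 or 4.

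Chodl (chr16:78930948-78951733), a membrane protein with a lectin-like domain, was at 40.0, 41.3, 45.3 and 57.7 CPM in wild-type and 12.5, 18.6, 22.6 and 26.6 CPM in mutant libraries. It fell without overlap (log2 fold -1.20 ± 0.22; adjusted p = 0.0227 by edgeR), lost on leaving out wild-type 3 or 4 or mutant 1, 2 or 3. Etl4 (chr2:19909780-20810713) was at 187, 155, 161 and 178 CPM and 86.5, 107, 81.2 and 121 CPM, also without overlap (-0.79 ± 0.13; adjusted p = 0.0142 by edgeR), lost on leaving out wild-type 1, 3 or 4 or mutant 1 or 3. Of 17 tested formins and dynamins 2 fell, with a median of 0.01, and of 9 tested calpains 1 fell.

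Hoxb6 rose, and the other Hox genes, which set position along the body axis, mostly lay above 0. Hoxb6 (chr11:96292476-96301569) was at 40.7, 35.5, 31.3 and 57.4 CPM in wild-type and 103, 71.0, 81.0 and 70.1 CPM in mutant libraries. All mutants were above all wild types (0.98 ± 0.18; adjusted p = 0.0282 by edgeR), with the call lost on leaving out wild-type 1, 2 or 3 or mutant 1 or 3. Of 18 tested Hox genes 15 were higher in mutants, beside 50.4% of all genes, with a median log2 fold of 0.36 that ran from 0.28 to 0.38 over the 8 fits that left out 1 library. None but Hoxb6 passed, and 10 had an unadjusted p under 0.05, all higher, beside 7.14% of all genes in either direction. For 6 of the Hox genes all mutants were above all wild types, beside 2.31% of all genes.

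Other genes of the Hoxb cluster are given beside it, and their differences from Hoxb6 were not tested. Hoxb5, beside it in the cluster, was at 227, 232, 253 and 201 CPM in wild-type and 296, 255, 336 and 292 CPM in mutant libraries, which did not overlap (0.37 ± 0.11). Hoxb3 ran from 190.7 to 206.7 CPM in wild-type and from 229.7 to 257.3 CPM in mutant libraries (0.34 ± 0.10), while Hoxb4, which lies between them, had -0.20 ± 0.13. On the other side of Hoxb6, Hoxb7 had 0.67 ± 0.59 at 1.73 to 9.89 CPM and Hoxb8 had 0.70 ± 0.25, both with overlapping groups. By cluster, 6 of 6 tested Hoxa, 6 of 7 Hoxb, 2 of 2 Hoxc and 1 of 3 Hoxd genes were above 0. Paralog groups 5 to 8 had a median of 0.67 over 7 genes and groups 1 to 4 a median of 0.28 over 11. That 0.67 is the fold of Hoxb7 itself, which had 79 wild-type and 128 mutant counts. Hoxa6, above it at 1.05 ± 0.90, had 28 and 60. The difference between these medians was not tested. Transcripts of neighbouring Hox genes can overlap, so reads of neighbours on the same strand may not be told apart.

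**Figure D4:**
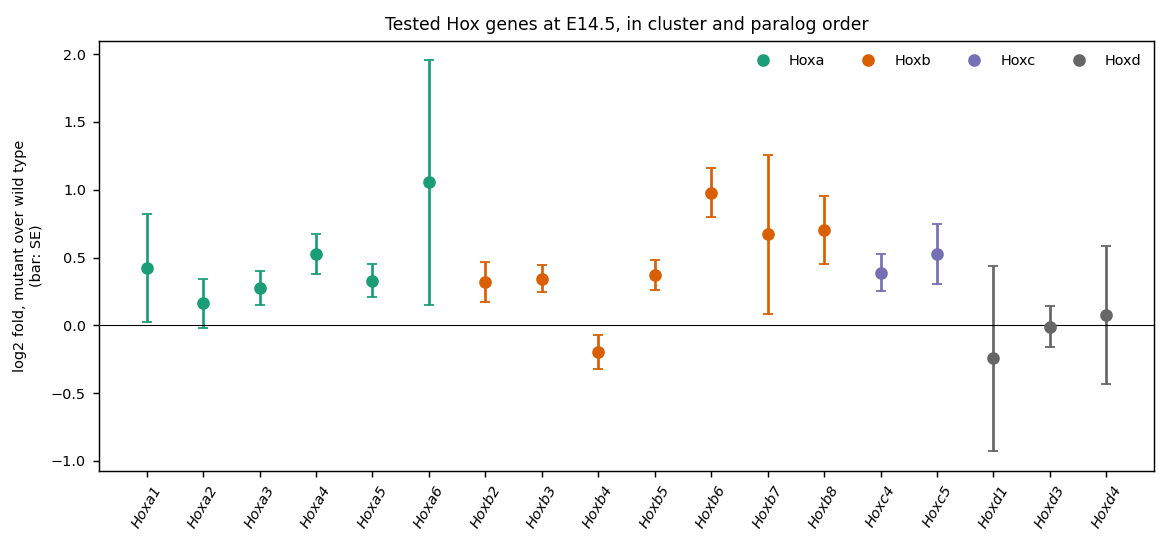
Log2 fold of mutant over wild type (vertical axis, bars are SE) for the 18 tested Hox genes, coloured by cluster. Hoxb6 at 0.98 is the only one that passed the test, and Hoxb4, Hoxd1 and Hoxd3 lie below 0.

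No transcription factor of the enteric lineage passed edgeR's test. Over 30 tested members the median was -0.03, and 4 higher and 6 lower members had an unadjusted p under 0.05, beside 7.14% of all genes. Among the higher were Casz1, given above, and the homeobox gene Tlx3 (1.14 ± 0.40). Nearest to the threshold was Ebf3, lower in mutants, at 73.3, 81.9, 82.5 and 101 CPM in wild-type and 44.9, 53.2, 61.3 and 52.0 CPM in mutant libraries (-0.68 ± 0.14; adjusted p = 0.0594 by edgeR), whose groups did not overlap. Hmx2 and Hmx3, homeobox genes that lie side by side, had -0.85 ± 0.28 and -0.62 ± 0.21. Hand2, required for enteric neuron differentiation, had -0.36 ± 0.14. Among 17 tested genes with forebrain links to DLX1 or DLX2, 1 fell, Vip, and 6 were above 0. Of 41 tested cell cycle genes, with a median of -0.05, 0 passed edgeR's test, while 5 had an unadjusted p under 0.05, all lower, beside 7.14% of all genes.

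The next 10 named genes by p lay just outside the threshold, with adjusted p from 0.0510 to 0.0731 by edgeR, beside 0.0463 for Hmcn1 just inside it. They were 7 with lower means in mutants, Enpp2 (autotaxin, -1.27 ± 0.26), the glutamate receptor subunits Grik3 (-0.60 ± 0.12) and Gria3 (-0.84 ± 0.18), the growth factor Ptn (-0.98 ± 0.20), St3gal1 (-0.94 ± 0.20), Ebf3 and the actin bundler Pls3 (-0.77 ± 0.16). The other 3 were higher, Bche (butyrylcholinesterase, 0.82 ± 0.17), Apoe (1.09 ± 0.23) and Thsd7a (1.25 ± 0.27). Nes, given above, followed with the same adjusted p as Thsd7a.

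Markers of most other cell types were at low levels. Immune markers summed to at most 5.59 CPM, erythroid to at most 4.04 CPM and mesothelial to at most 2.11 CPM in any library. Epithelial markers summed to 5.47 to 11.8 CPM in wild-type and 6.78 to 41.7 CPM in mutant libraries, with mutant 2 the high one. Endothelial markers summed to 93.9 to 114 CPM and 82.9 to 107 CPM, nearly all of it Kdr, and smooth muscle markers to 77.0 to 174 CPM and 82.9 to 170 CPM. Mitochondrially encoded genes held 5.36% to 6.36% of the counts. Immediate early and heat shock genes, which dissociation is known to raise, summed to 5673 to 7149 CPM in wild-type and 5622 to 6792 CPM in mutant libraries. Of 24 tested, 17 were above 0, beside 50.4% of all genes, and 0 passed. Their median was 0.20, and ran from -0.09 to 0.30 on leaving out 1 library. The part of these cells and states in the changes was not tested.

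Sex, date and single libraries were set beside the 21 calls. With Y-linked expression as a covariate, 10 of the 21 still passed edgeR's test (Dlx1, Dlx2, Vip, Lifr, Dnm3, Col25a1, Penk, Mmp2, Slc17a6 and Col3a1). The dates in the titles are shared between genotypes only by wild-type 1 and mutant 4, and what they date is not stated. With the date as a block, a contrast that rests on that pair, Dlx1 and Dlx2 passed, and the log2 folds of Penk, Chodl and Hmcn1 came to 0.57, -0.59 and -0.16. DESeq2 called all 21 and limma-voom 20. Scaling by plain library totals ended 5 of the calls, those of Irs1, Unc5c, Fmn1, Col3a1 and Hmcn1, with adjusted p from 0.0537 to 0.0677 by edgeR. Leaving out 1 library gave 7 to 31 changed genes, with 9 and 12 without wild-type 3 or 4 and 12 and 7 without mutant 1 or 3. Of the 21, 5 were called in each of the 8 fits that left out 1 library: Dlx1, Dlx2, Vip, Lifr and Dnm3.

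The change at E14.5 was then set beside the change at birth, which shares no library with it but differs in reporter, strain and table. At P0, 2 of 14140 genes tested changed (0.0141%), Dlx1 and Dlx2. Of the 21 genes, 15 had the same sign at P0, the targeted Dlx1 and Dlx2 among them. The share of all genes with the same sign was not computed, so this count does not show agreement between the ages. The log2 fold differed between the ages for 85 of 12929 genes tested at both (0.657%), by a normal approximation to the difference divided by its SE, with Benjamini-Hochberg adjustment, and for 13 of the 21. The 21 were picked by their E14.5 change, which also enters this difference. Their share therefore cannot be compared with that of all genes. That count of 85 was 140 and 25 without wild-type 1 or 4, and 53, 142 and 24 without mutant 1, 2 or 3. The SEs come from edgeR's test on few libraries, for which a normal approximation gives p-values that are too small. The count of 85, and the differences near the threshold, may therefore be overstated.

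Penk had 1.56 ± 0.26 at E14.5 and -0.51 ± 0.22 at P0, a difference of 2.08 ± 0.34 (adjusted p = 1.08e-05 by the normal approximation on edgeR folds). The P0 fold of Penk was below 0 but did not pass edgeR's test. The rise was thus not seen at P0, and a fall at that age was not established. Lifr went from -1.24 ± 0.15 to -0.05 ± 0.13, a difference of -1.19 ± 0.20 (adjusted p = 1.21e-05 by the same approximation on edgeR folds), and Col25a1 from -0.93 ± 0.15 to 0.26 ± 0.16. Both were lower in mutants at E14.5 and within 2 SE of 0 at P0. These 3 differences, and those of Etl4, Limch1 and Cartpt, held whichever E14.5 library was left out. P0 libraries were not left out in turn. For Cartpt the fold was 0.54 ± 0.28 at E14.5 and -1.27 ± 0.22 at P0, and neither passed edgeR's test. Vip was lower at both ages, -2.54 ± 0.28 and -1.11 ± 0.20, with a difference of -1.42 ± 0.34 (adjusted p = 0.0155 by the same approximation on edgeR folds) that was lost on leaving out wild-type 4. For Slc17a6 the fold was 5.08 ± 0.95 and then 0.52 ± 0.36, a difference lost on leaving out mutant 3. Differences did not pass for Gja1, Dnm3, Chodl, Unc5c, Mmp2 and Col3a1, whose signs were the same at both ages. The pan-neuronal list had a median of 0.38 at E14.5 and -0.34 at P0, and the voltage-gated ion channels 0.20 and -0.23, a contrast between ages that was not tested for the lists.

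**Figure D5:**
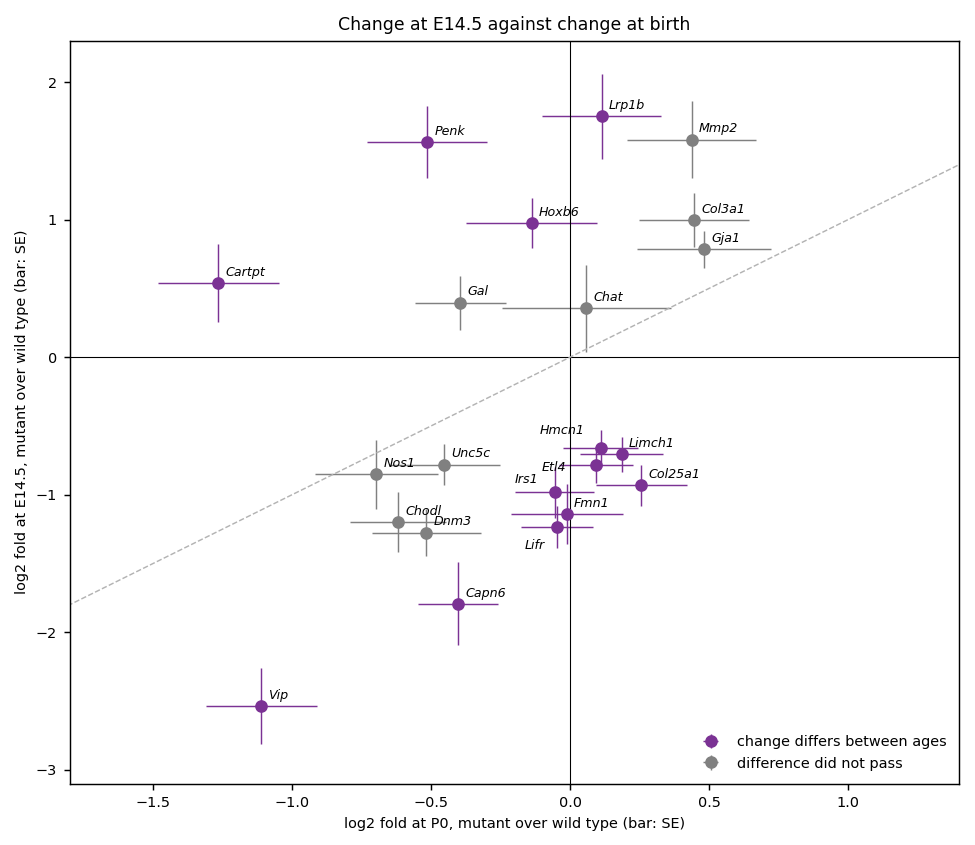
Log2 fold at E14.5 (vertical axis) against log2 fold at P0 (horizontal axis) with SE bars, for 18 of the 21 genes described that changed at E14.5 (Dlx1, Dlx2 and Slc17a6 lie outside the axes) and for Cartpt, Gal, Nos1 and Chat. Purple marks genes whose change differs between ages, such as Penk at 1.56 and -0.51, and the dashed line marks equal change.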

How the data were processed

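RNA of sorted small intestine cells was measured in 4 wild-type and 4 mutant libraries at E14.5. Per the labels' protocols, cells were freed with dispase and collagenase, RNA was extracted after sorting and used if its RIN was above 7, and libraries were made with a stranded SMARTer kit for small inputs of total RNA. For each age the authors deposited a table of sense-strand counts per gene, as whole numbers. STAR, limma and the builds mm10 and GRCm38 appear in the submitters' processing notes, without versions or roles. Totals were nearly equal across libraries, and the sources used here give neither the step behind this nor the original depths. Near-identical copies, and genes overlapping on the same strand, may share reads.

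The quasi-likelihood test of edgeR 4.0.16 (R 4.3.3) was run on each table by itself, after filterByExpr and TMM scaling, with a Benjamini-Hochberg threshold of 0.05, and was checked on simulated data. Of 22786 genes in the E14.5 table, 22768 matched GENCODE M21 (GRCm38), whose coordinates are given. Standard errors are the fold over the square root of F. Alternatives were DESeq2 1.42.0, limma-voom 3.58.1, other scalings, filters and thresholds, a replicate block, a title date block, a Y-linked covariate, no mitochondrial genes, and leaving out each library. No duplicate library was found.

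The genes named are the Dlx genes, Vip, Penk, Nos1, Chat, Slc17a6, Gal, Cartpt, Npy and Tac1, every gene that passed apart from predicted and sex genes, the next 10, members of fixed lists that passed and others with small p as values, and tested genes within 500 kb of Dlx1 and Dlx2. Further members were named as examples after their values were seen. The members and lists were chosen with earlier results of these data known. Some genes, 1 of them among those that passed, were fitted with all others but are not reported here and are left out of the lists.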

Additional observations from a re-analysis of the deposited data

Results flagged for a closer look

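Among sets of 4 libraries, 5 of 68 had 1 library far from the other 3, where chance gives about 1 in 20. Dnm3 was at 48.9 CPM in mutant 3, beside 34.2 CPM in the next. Slc17a6 was at 0.576 CPM in wild-type 4 and at 0 in the others. Summed cell cycle genes were at 7390 CPM in wild-type 1, beside 8237 CPM in the next. Summed fibroblast markers were at 611 CPM in mutant 2, beside 515 CPM in the next. In wild-type 2, 15973 genes were detected, beside 17537 in the next.

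For 23 of the named genes, counting members of the lists, the log2 fold at E14.5 differed from that at P0 past the threshold. Genes named for a small p at E14.5 are favoured in this count, since the same fold enters the difference. The normal approximation gives p-values that are too small for so few libraries, which may also raise this count. The difference (E14.5 minus P0, ± SE) was above 0 for Penk (2.08 ± 0.34), Cartpt (1.80 ± 0.36), Slc17a6 (4.56 ± 1.01), Lrp1b (1.64 ± 0.38), Robo2 (0.99 ± 0.24), Gap43 (0.93 ± 0.23), Kcnd2 (1.30 ± 0.34), Hoxb6 (1.12 ± 0.30), Scn3a (0.95 ± 0.26) and Casz1 (0.88 ± 0.24). It was below 0 for Lifr (-1.19 ± 0.20), Col25a1 (-1.19 ± 0.22), Etl4 (-0.88 ± 0.19), Limch1 (-0.89 ± 0.20), Ptn (-1.09 ± 0.25), Vip (-1.42 ± 0.34), Cenpf (-0.79 ± 0.19), Capn6 (-1.39 ± 0.33), Hmcn1 (-0.77 ± 0.19), Irs1 (-0.92 ± 0.23), St3gal1 (-1.27 ± 0.32), Cdk6 (-0.88 ± 0.23) and Fmn1 (-1.13 ± 0.30).

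Of the 8 analyses without 1 E14.5 library, all 8 kept the difference for Penk, Cartpt, Lifr, Col25a1, Etl4 and Limch1. For Slc17a6, Lrp1b, Robo2, Ptn and Vip 7 kept it, for Cenpf 6, and for Capn6 and Hmcn1 5. For Hoxb6, St3gal1, Casz1, Scn3a and Gap43 4 kept it, for Irs1, Kcnd2 and Cdk6 3, and for Fmn1 2.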

How the results depend on the processing

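The count of 23 changed genes was 136 with no low-count filter, 73 with DESeq2, 39 at an adjusted p threshold of 0.1 and 4 with the title date as a block. Leaving out 1 library gave 7 to 31. It was 23 with RLE scaling, 17 with plain totals, 21 with a mean of at least 20 counts, 25 with limma-voom and 16 with a Y-linked covariate (10 higher and 6 lower). With the replicate number as a block it was 16, of which 13 were among the 23. Deviations of same-numbered libraries correlated at -0.139 to 0.049 over the 4 pairs, so the numbers do not pair the libraries. The 85 genes whose change differs between ages were 80 with RLE scaling and 24 to 142 without 1 library.

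Over 92 genes recomputed, the title date block turned the sign of Nos1 (0.53), Mki67 (0.0104) and Chat (-0.0763). Among neighbours of the Dlx1 and Dlx2 locus it also turned Metap1d (-0.21), Dcaf17 (0.48), Itga6 (0.11) and Pdk1 (0.83). On leaving out 1 library, Dlx5 ran from -0.3043 (wild-type 4) to 0.0685 (wild-type 1), with 0.0046 for mutant 3, and Dlx3 from -0.4802 (mutant 4) to 0.867 (wild-type 1), with -0.1585 for wild-type 2. The cause was not tested. Scaling moved the median of all genes by at most 0.0169. Genes under the low-count filter, Npy and Tac1 among them, were not tested.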
